A study of Mus musculus with 7 samples.

Results

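The nuclear genes for subunits of the mitochondrial respiratory chain and ATP synthase were examined in mouse cerebellum: 83 genes of the 55450 in the per-library tables. They were chosen by symbol (Nduf, Sdh, Uqcr, Cox4 to Cox8 and Atp5 families, without assembly factors) and by a mean of at least 1 TPM, a transcript's share of the library corrected for its length, over the 7 libraries. Of 89 genes with such symbols, 6 lay under that level: Ndufa11b, Ndufs6b, Cox6c2, Cox7b2, Cox8c and an additional entry for Atp5o. Just inside the threshold were Cox8b, at 1.16 TPM, and Cox6a2, at 1.46 TPM. Just outside it was Cox7b2, at 0.563 TPM. The 83 genes comprised 36 of complex I, 4 of complex II, 8 of complex III, 18 of complex IV and 17 of complex V, spread over 19 chromosomes of the nuclear genome and 0 of them on the mitochondrial genome. Atp5s, counted with complex V by its symbol, encodes coupling factor B, which is not a subunit of the enzyme.

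Polyadenylated RNA was sequenced from cerebella of C57BL/6 mice at postnatal day 15, in 3 wild-type (WT) libraries and in 4 libraries from L3mbtl3 KO/+ mice, which keep 1 intact allele. The protein of this gene reads methylated lysines on chromatin through MBT domains. The labels name no Cre or transgene and leave out which stretch of the gene is deleted, the litters and the sex. The comparison asks how transcript levels differ when 1 allele of L3mbtl3 is lost. Apart from the number of KO/+ mice, nothing says which samples were separate animals, so p-values measure the spread between these samples.

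The respiratory chain passes electrons from NADH (complex I) and succinate (complex II) through complexes III and IV to oxygen and pumps protons, and complex V, ATP synthase, uses the proton gradient to make ATP. Most subunits are encoded in the nucleus and imported, whereas a small core set of complexes I, III, IV and V is encoded by the mitochondrial genome, and complex II is entirely nuclear. Neurons of the growing cerebellum draw heavily on this pathway, and granule neurons are known to shift from glycolysis towards oxidative metabolism as they leave the cell cycle. NRF1, ETS factors of the GABP type and YY1 are textbook regulators of these nuclear genes.

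Promoter letters of 6 members are shown because they hold, before the start that RefSeq annotates, a motif of one of those regulators. In GENCODE M21 (GRCm38), the motifs of Atp5g2, Atp5k and Ndufs3 lie inside the gene, and those 3 stretches and that of Cox6a1 overlap an exon. The sequences are from RefSeq (GRCm38.p6), 30 bases each, written in the direction of the gene, with the motif in capitals. The first 4 hold the core of the NRF1 motif, CGCATGCG, which is its own reverse complement. They belong to an ATP synthase c ring gene, an ATP synthase membrane subunit, a cytochrome oxidase subunit and a complex I accessory subunit. The last 2 hold the ETS motif CCGGAAG or its reverse complement CTTCCGG.
Atp5g2, chr15:102671070-102671099, minus strand: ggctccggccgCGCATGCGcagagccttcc
Atp5k, chr5:108434430-108434459, minus strand: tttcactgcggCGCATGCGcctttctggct
Cox6a1, chr5:115349101-115349130, minus strand: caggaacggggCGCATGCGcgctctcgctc
Ndufa11, chr17:56717692-56717721, plus strand: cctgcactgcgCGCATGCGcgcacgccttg
Sdhd, chr9:50603877-50603906, minus strand: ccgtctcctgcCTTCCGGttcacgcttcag
Ndufs3, chr2:90904730-90904759, minus strand: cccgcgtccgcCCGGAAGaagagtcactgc

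Promoters, 250 bases before to 50 after the RefSeq start, were matched by gene ID or symbol for 67 of the 83 genes, some with more than 1 promoter. Searching both strands, CGCATGCG was present in a promoter of 9 of the 67 (13.43%) and of 2.77% of all 17491 protein-coding genes with a promoter of that length. The ETS letters CCGGAAG were in 16 of the 67 (23.88%) and in 12.94% of all these genes, and the YY1 letters AAGATGGC were in 10 (14.93%) and in 3.57%. At least 1 of the 3 motifs was in 29 members (43.28%), against 17.82% of all these genes. A match describes letters in the window and not a bound site, and windows without a match say nothing about the factor.

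Library totals ranged from 29248360 expected counts (KO/+ replicate 4) to 43761792 (WT replicate 3). L3mbtl3 itself stood at 24.2 ± 2.25 CPM (counts scaled to a common library size; SD, n = 3) in WT libraries and 20.6 ± 2.55 CPM (SD, n = 4) in KO/+ ones, 85.2% of WT, with an edgeR adjusted p of 0.957. The ranges overlapped, and reads from outside the deleted part cannot check the label. Over all 16813 genes tested, 0 passed an adjusted p of 0.05 by edgeR and 0 by DESeq2. All 12 markers of cerebellar identity fixed for the check, such as Gabra6, Pcp2 and Zic1, were expressed.

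As a level in the tissue, the 83 genes together made up 4.78%, 4.57% and 4.84% of nuclear TPM in WT and 5.34%, 5.45%, 4.80% and 4.66% in KO/+ replicates 1 to 4. Only KO/+ replicates 1 and 2 lay above all WT libraries. In bulk tissue, fewer cells of a type and less RNA per cell cannot be told apart. Per gene, the mean level ranged from 1.16 TPM (Cox8b) to 3062 TPM (Atp5b, the catalytic beta subunit of ATP synthase), with a median of 391 TPM. Of the Atp5b level, 1485 TPM was assigned to a transcript of 343 bases and 1384 TPM to a transcript of 1916 bases. Next to Cox8a at 1864 TPM, the top rank of Atp5b in TPM thus rested on the short transcript. Among complexes the median mean TPM was 290 for complex I, 197 for II, 449 for III, 443 for IV and 745 for V. Complex II, with 4 subunits, held the lowest median and ATP synthase the highest, on a scale corrected for length.

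**Figure D1:**
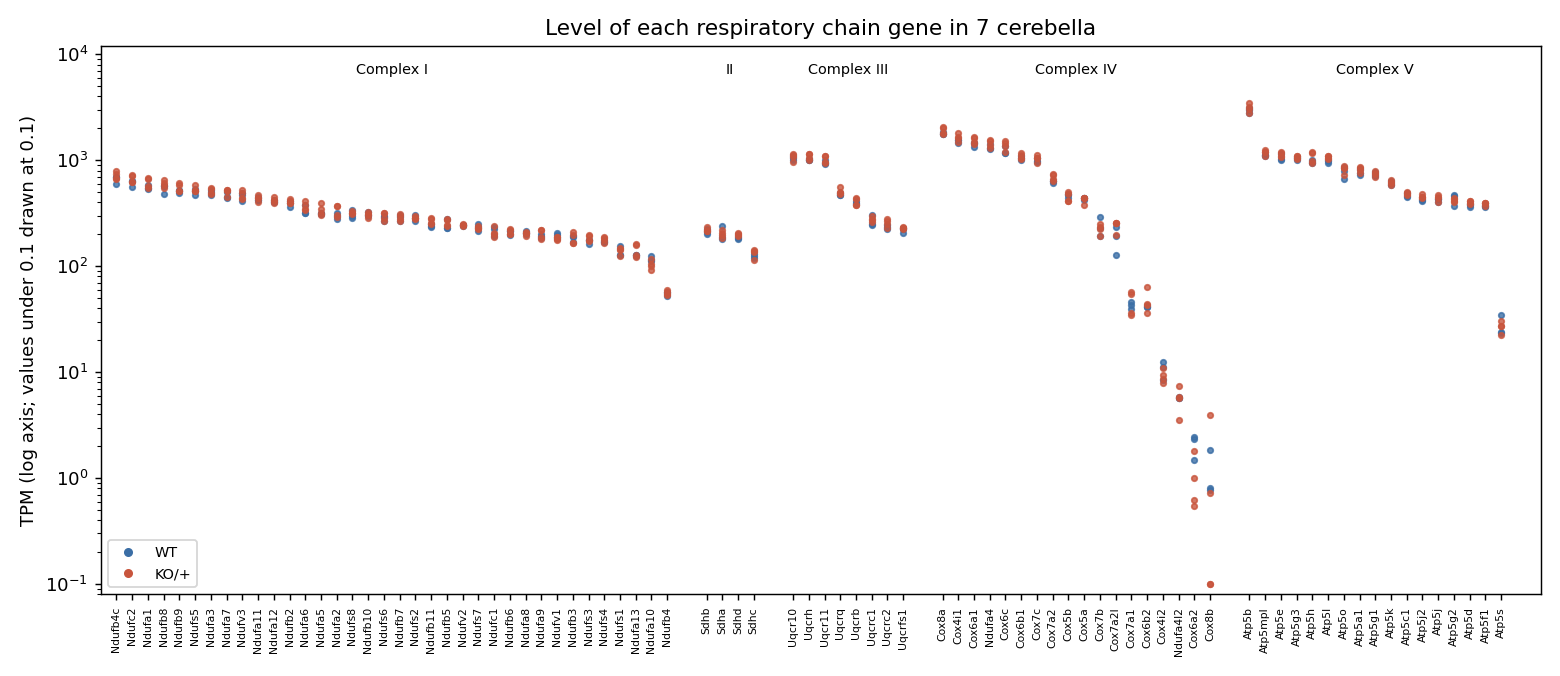
TPM (log axis, values under 0.1 drawn at 0.1) of each of the 83 nuclear respiratory chain genes, ordered by mean within complexes I to V; each point is 1 library, blue for WT and red for KO/+. Most genes lie above 100 TPM with the genotypes intermingled, Atp5b lies highest, and the tissue-restricted isoforms of complex IV form the low tail down to Cox8b.

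For KO/+ against WT, 82 of the 83 genes passed the filter on low counts; Cox8b did not. None of the 82 passed the adjusted threshold by edgeR or by DESeq2, against 0% of all genes tested by edgeR. At an unadjusted p under 0.05 there was 1 member by edgeR, against 3.15% of all genes, and 0 by DESeq2. That member was Cox6a2, which met the TPM rule only through its WT libraries. The log2 fold change of KO/+ over WT, also called the log2 ratio, was positive for 76 of the 82, against 48.8% of all genes, with a median of 0.11 against -0.005 for all genes. The 6 with a negative value were Cox6a2, Cox4i2, Ndufa10, Atp5g2, Ndufv1 and Ndufa4l2. The 95% interval lay within 1.5-fold of no change in either direction for 77 members and within 2-fold for 81. Sdhd was the 1 member whose libraries were higher in KO/+ without overlap (2.16% of all genes), and 0 members were lower without overlap (1.8% of all genes).

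That median rested on few libraries. Leaving out KO/+ replicate 1, KO/+ replicate 2 or WT replicate 2 gave 0.07 in each case, and the replicate number as a block gave 0.16. On log2(TPM + 1), 67 of 82 members were positive, against 37.4% of all genes, with a median difference of 0.07 against a shift of -0.04 over all genes. Without KO/+ replicate 4, 9 members had an unadjusted p under 0.05 in edgeR, against 9.32% of all genes.

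By complex, the counts of positive values were 34 of 36 in complex I (median log2 fold change 0.10), 4 of 4 in II (0.13), 8 of 8 in III (0.12), 14 of 17 in IV (0.13) and 16 of 17 in V (0.12). The complex medians thus ran from 0.10 to 0.13. The median standard error (SE) of a single member was 0.105, which does not measure the spread of a median over genes of the same libraries. Within complex IV, the 12 members other than alternative isoforms were positive in 12 cases with a median of 0.15. They include Cox7a2l, a supercomplex factor related to Cox7a2. The 5 tested alternative isoforms were positive in 2, with a median of -0.02. In complex V, the 3 genes for the c ring had a median of 0.06 and the 4 peripheral stalk genes 0.13.

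**Figure D2:**
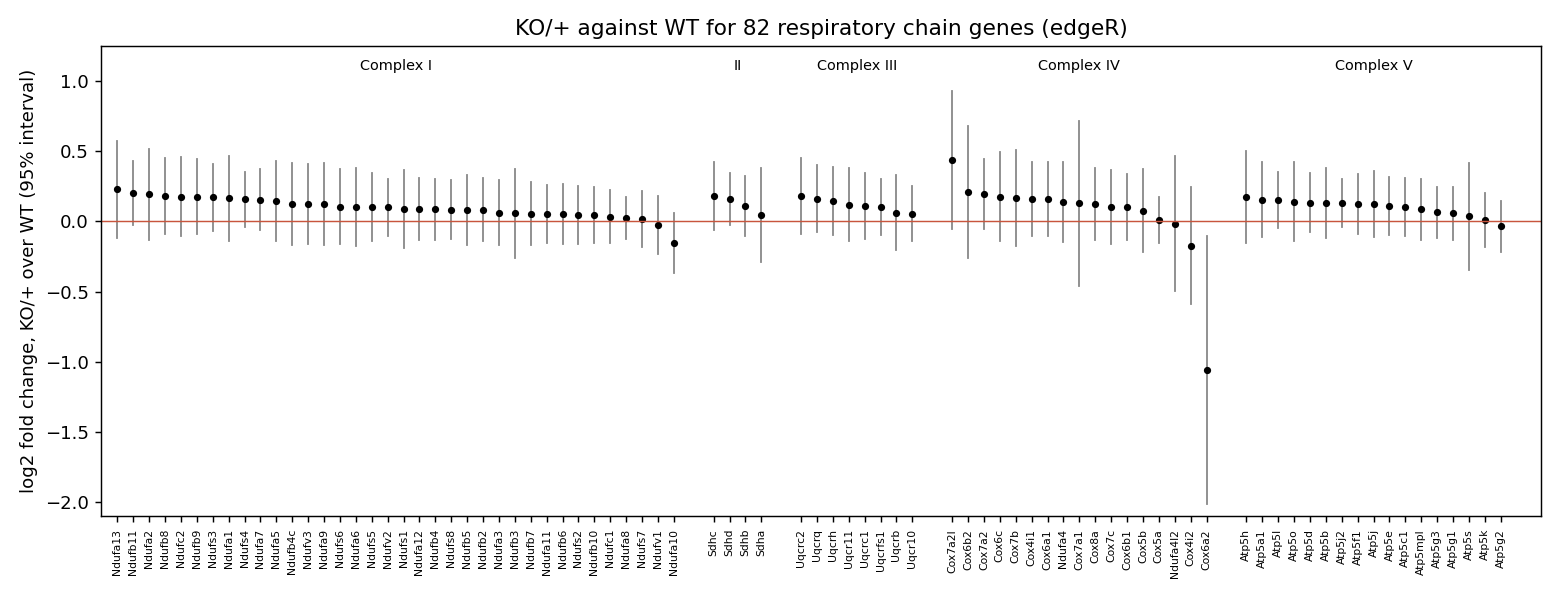
Log2 fold change of KO/+ relative to WT from edgeR for the 82 tested members, ordered by size within complexes I to V, with 95% intervals. Of the 82 points 76 lie above 0, and the largest negative value is that of Cox6a2, -1.06.

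Complex I, NADH dehydrogenase, has a core of 7 nuclear subunits and further subunits from the mitochondrial genome, around which accessory subunits are arranged. Ndufs1, the largest core subunit with iron-sulfur clusters, stood at 187, 179 and 224 CPM in WT and 225, 233, 201 and 179 CPM in KO/+, a log2 ratio of 0.09 (SE 0.12, edgeR adjusted p = 0.957). The 2 groups spanned almost the same range. Ndufv1, which holds the flavin that accepts electrons from NADH, was at 156, 144 and 159 CPM in WT and 158, 164.8, 136 and 143 CPM in KO/+ (log2 ratio -0.02, SE 0.09). Ndufa10, an accessory subunit, was at 127, 112 and 116 CPM in WT and 110, 111, 92.0 and 114 CPM in KO/+. Its highest library was WT replicate 1 and its lowest KO/+ replicate 3, unlike most complex I genes, and its log2 fold change was -0.15 (edgeR adjusted p = 0.957). The smallest unadjusted p-values of complex I belonged to Ndufb11 (log2 fold change 0.20, SE 0.10), Ndufs4 (0.16, SE 0.08) and Ndufs3 (0.17, SE 0.10), all with an edgeR adjusted p of 0.957.

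The highest TPM in complex I was that of Ndufb4c, 695 TPM, but the annotation (GENCODE M21, GRCm38) lists it as a processed pseudogene at chr15:73809507-73809896, and all of its 50-base windows occur in Ndufb4. Its mean effective length, the number of positions a fragment can start from, was 71.5 bases, so its TPM is high for its count. Ndufb4c was counted at 31.1, 28.4 and 35.6 CPM in WT and 37.5, 38.5, 33.8 and 28.3 CPM in KO/+, and Ndufb4 at 22.2, 20.4 and 22.7 and 24.1, 25.5, 21.1 and 21.8 CPM. How the reads divide between them is uncertain. With both summed, the log2 fold change was 0.11 (SE 0.11, edgeR adjusted p = 0.957).

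Complex II, succinate dehydrogenase, belongs to both the citric acid cycle and the respiratory chain. Sdhd, a membrane anchor subunit (chr9:50596357-50603812, minus strand, GRCm38), was at 108.2, 104.7 and 105.6 CPM in WT and 129.3, 124.2, 112.0 and 108.3 CPM in KO/+. The lowest KO/+ library exceeded the highest WT library by a narrow margin, and the difference was carried by KO/+ replicates 1 and 2. Its log2 fold change was 0.16 (SE 0.08, unadjusted p = 0.0869 and adjusted p = 0.957 by edgeR). Sdhc, the other anchor, was at 107, 105 and 116 CPM in WT and 134, 135, 124 and 103 CPM in KO/+ (log2 ratio 0.18, SE 0.10). Here KO/+ replicate 4 lay below every WT library. Sdha, the flavoprotein that oxidises succinate, was at 299, 300 and 399 CPM in WT and 371, 389, 322 and 290 CPM in KO/+, so WT replicate 3 was the highest of all 7 (log2 fold change 0.04, SE 0.15). Sdhb, the iron-sulfur subunit, was at 117, 102 and 111 CPM in WT and 125, 131, 111 and 108 CPM in KO/+ (log2 ratio 0.11, SE 0.09).

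Complex III, the cytochrome bc1 complex, moves electrons from ubiquinol to cytochrome c. Uqcrc2, a core protein, stood at 239, 220 and 247 CPM in WT and 294, 301, 246 and 227 CPM in KO/+, a log2 ratio of 0.18 (SE 0.12, edgeR adjusted p = 0.957). The first 2 KO/+ libraries were the highest and the last 2 lay within the WT range. Uqcrc1, the other core protein, was highest in WT replicate 3: 208, 205 and 257 CPM in WT and 242, 254, 245 and 225 CPM in KO/+. Uqcrfs1, the Rieske iron-sulfur protein, was at 149, 133 and 155 CPM in WT and 166, 163, 154 and 144 CPM in KO/+ (log2 ratio 0.11, SE 0.09). Uqcr10, a small subunit and the most abundant of complex III at 1064 TPM, had a log2 ratio of 0.06 (SE 0.09).

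Complex IV, cytochrome c oxidase, has subunits that exist as a general and a tissue-restricted isoform. In these cerebella the general isoform predominated in every complex IV pair. Cox4i2, the isoform of lung and hypoxic cells, made up 0.706%, 0.854% and 0.537% of the TPM of the subunit 4 pair in WT and 0.475%, 0.470%, 0.665% and 0.623% in KO/+, overlapping ranges. Cox7a1, the heart and muscle isoform of subunit 7a, made up 6.40% ± 0.656 (SD, n = 3) of its pair with Cox7a2 in WT libraries and 6.11% ± 1.10 (SD, n = 4) in KO/+ ones. Cox6b2, an isoform known from testis, made up 3.796% ± 0.190 (SD, n = 3) of its pair with Cox6b1 in WT libraries and 4.06% ± 0.865 (SD, n = 4) in KO/+ ones. Ndufa4l2, the hypoxia-inducible relative of Ndufa4, made up 0.427% and 0.392% of their sum. The shares of Cox7a1, Cox6b2 and Ndufa4l2 differed by less than the SD between KO/+ libraries, and that of Cox4i2, by -0.141 percentage points, by less than the WT SD of 0.159. Cox7b2, which lay under the TPM threshold, made up 0.385% ± 0.228 of its pair with Cox7b in the 3 WT libraries and 0.153% ± 0.104 (SD) in the 4 KO/+ libraries. That difference and the one of Cox6a2 given below were larger than the SD of either group, with the ranges overlapping in both pairs. For Cox7b2 the difference, -0.232 percentage points, was only just larger than the WT SD, and all 7 libraries together held 19 counts of it.

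Cox4i1, the general subunit 4, was at 397, 367 and 409 CPM in WT and 467, 495, 416 and 371 CPM in KO/+ (log2 ratio 0.16, SE 0.11, edgeR adjusted p = 0.957). Cox8a, the general subunit 8 and the most abundant complex IV gene at 1864 TPM, was at 243, 234 and 247 CPM in WT and 299, 285, 237 and 229 CPM in KO/+ (log2 ratio 0.12, SE 0.11). For both genes the first 2 KO/+ libraries were the highest, and KO/+ replicate 4 lay within or below the WT range. Cox5a, a subunit with no isoform pair here, was at 83.5, 80.5 and 88.3 CPM in WT and 80.6, 90.3, 85.7 and 81.96 CPM in KO/+ (log2 ratio 0.01, SE 0.07).

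Cox6a2, the heart and muscle isoform of subunit 6a (chr7:128205435-128206387, minus strand), had the largest negative value. It was at 0.315, 0.514 and 0.514 CPM in WT and 0.145, 0.232, 0.118 and 0.372 CPM in KO/+. KO/+ replicate 4 overlapped the WT range and the other 3 lay below it. The log2 fold change was -1.06 (SE 0.42, unadjusted p = 0.0339 and adjusted p = 0.957 by edgeR), and all 7 libraries together held 82 counts of it. Its mean was 2.08 TPM in WT and 0.998 TPM in KO/+, so it reached the threshold of 1 TPM only through the WT libraries. A filter of at least 1 CPM removed it and left 0 of 81 members with an unadjusted p under 0.05 in edgeR. As a share of the pair with Cox6a1 it was 0.147% ± 0.0409 in the 3 WT libraries and 0.0660% ± 0.0426 (SD) in the 4 KO/+ libraries. The summed level of 8 striated muscle markers was low, at 6.38, 6.44 and 6.86 TPM in WT and 10.3, 8.04, 7.12 and 11.3 TPM in KO/+. Of these markers, 5 of 5 tested had a positive log2 fold change. Any part of muscle tissue in the Cox6a2 values was not tested.

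Cox7a2l, a relative of subunit 7a that takes part in assembling respiratory supercomplexes (chr17:83501918-83517330, minus strand), had the largest positive value. It was at 60.7, 89.3 and 113 CPM in WT and 134, 130, 119 and 90.6 CPM in KO/+, so WT replicate 1 was far below the other 6. The log2 fold change was 0.43 (SE 0.21, unadjusted p = 0.0758 and adjusted p = 0.957 by edgeR), and it ran from 0.22 without WT replicate 1 to 0.66 without WT replicate 3. Gm6969, a processed pseudogene that shares sequence with Cox7a2l, was given 7.96, 4.197 and 0 CPM in WT and 0.029, 0, 0 and 3.76 CPM in KO/+. The libraries with Gm6969 counts above 1 CPM were the 3 with the lowest Cox7a2l. Counting both together gave 68.6, 93.5 and 113 CPM in WT and 134, 130, 119 and 94.4 CPM in KO/+, a log2 ratio of 0.38 (SE 0.18, edgeR adjusted p = 0.957).

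**Figure D3:**
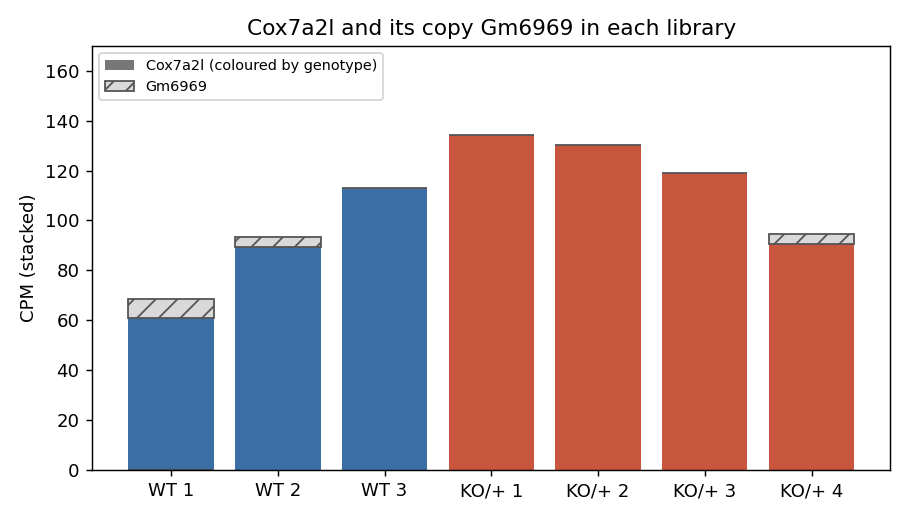
CPM of Cox7a2l (blue in WT, red in KO/+) with the CPM of the pseudogene Gm6969 stacked on it (hatched), in each of the 7 libraries. WT replicate 1 has the lowest Cox7a2l value, 60.7 CPM, and the highest Gm6969 value, 7.96 CPM, and stays lowest after summing, at 68.6 CPM.

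Complex V, ATP synthase, has a catalytic head, stalks and a membrane ring. Atp5b, the catalytic subunit of the head, was at 1446, 1377 and 1501 CPM in WT and 1690, 1739, 1488 and 1408 CPM in KO/+ (log2 ratio 0.13, SE 0.11, edgeR adjusted p = 0.957). The first 2 KO/+ libraries were above all others and the last 2 lay inside the WT range. Atp5a1, the alpha subunit, was also highest in the first 2 KO/+ libraries, with 1049.6, 972 and 1140.1 CPM in WT and 1283, 1282, 1102 and 1028 CPM in KO/+ (log2 ratio 0.16, SE 0.12). Atp5g1, Atp5g2 and Atp5g3 encode the same c ring protein from 3 genes, and their log2 fold changes were 0.06, -0.04 and 0.06 (SE 0.08 each). Atp5g2, whose promoter letters are shown above with the NRF1 motif, was at 109, 110 and 94.7 CPM in WT and 107, 104, 101 and 96.1 CPM in KO/+, and was 1 of 8 members not highest in KO/+ replicate 1 or 2. Atp5l, a membrane part subunit, had a log2 ratio of 0.15 (SE 0.09), and 0.15 (SE 0.08) when merged with the copy Gm10221.

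Across libraries, the members moved together more by library than by genotype. Measured from each gene's mean log2 CPM, the median deviation over members reached -0.06, -0.14 and 0.00 in WT and 0.18, 0.18, -0.04 and -0.13 in KO/+. Of the 82, 74 (90.24%) were highest in KO/+ replicate 1 or 2, against 30.93% of all genes tested. The share was also above that of all genes in related sets. It was 53.58% for other protein-coding genes under 1000 bases and 92.31% for mt-encoded protein genes. For subunits and carriers outside the symbol rule it was 66.67%, for citric acid cycle genes 62.5% and for assembly factors 59.09%. Glycolysis genes stood at 50% and regulators of mitochondrial biogenesis at 45%. Among lists of cell markers it was 100% for 6 red blood cell genes and 90% for 10 mature granule neuron genes. It was 0% for 10 cell cycle genes and for 10 myelin genes. KO/+ replicate 4 was the highest for 0 members and the lowest for 29, and WT replicate 2 was the lowest for 38. Members above their own mean numbered 76 in KO/+ replicate 1, 79 in replicate 2, 22 in replicate 3 and 3 in replicate 4, and 17, 7 and 42 in WT replicates 1 to 3. The KO/+ libraries thus spanned almost the whole range, from the highest values to just above those of WT replicate 2 in median deviation. The 8 members with another highest library were Ndufa10 (WT replicate 1), Sdha, Uqcrc1 and Atp5s (WT replicate 3), Cox4i2, Cox6a2 and Atp5g2 (WT replicate 2), and Ndufa4l2 (KO/+ replicate 3).

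**Figure D4:**
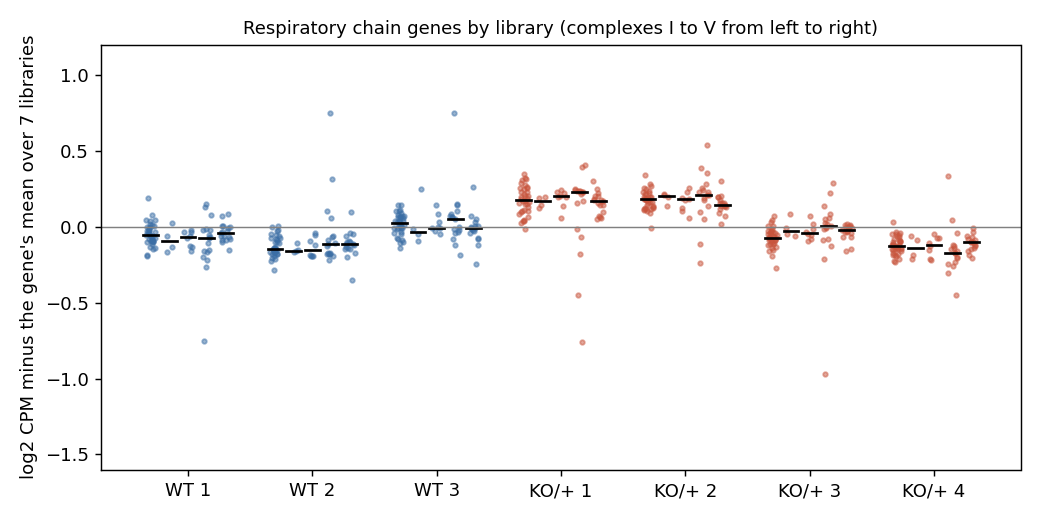
Deviation of log2 CPM from each gene's mean over the 7 libraries for the 82 tested members, 1 point per gene, with complexes I to V from left to right within each library and a bar at each complex median. In all 5 complexes the bars are highest in KO/+ replicates 1 and 2, and those of WT replicate 2 and KO/+ replicate 4 lie below 0.

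The share of RNA from the mitochondrial genome was likewise highest in KO/+ replicates 1 and 2, but lowest in KO/+ replicate 4, where the members' median deviation was lowest in WT replicate 2. The 37 mt- genes held 3.32%, 3.41% and 3.96% of counts in WT (mean 3.56% ± 0.347 SD, n = 3) and 4.74%, 4.55%, 3.75% and 3.16% in KO/+ (mean 4.05% ± 0.733 SD, n = 4). The difference of 0.49 percentage points gave p = 0.4 in a two-sided exact permutation test over 35 splits. Of the 13 mt-encoded protein genes, 12 had a positive log2 fold change (median 0.16) and 0 were called. mt-Co1, the catalytic subunit of complex IV, was at 10655, 10682 and 12434 CPM in WT and 14649, 15143, 11529 and 10271 CPM in KO/+ (log2 ratio 0.20, SE 0.17). mt-Atp6, the proton channel subunit of complex V, had the largest value, 0.31 (SE 0.16, edgeR adjusted p = 0.957). Both again had KO/+ replicates 1 and 2 on top.

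Over the 7 libraries, the members' share of nuclear TPM and the mt share of all TPM had a Pearson r of 0.90 and a Spearman rho of 0.86. Without KO/+ replicates 1 and 2, the libraries farthest from the median mt share, r was 0.60 over 5 libraries, so much of the relation rested on them. The points share their libraries and their composition, and these values are a description. By complex, r was 0.87 for I, 0.93 for II, 0.87 for III, 0.95 for IV and 0.85 for V, and without those 2 libraries 0.36, 0.90, 0.21, 0.87 and 0.25. Complexes II and IV thus kept values near 0.9 and the others did not. In summed TPM, the 13 mt-encoded protein genes exceeded the nuclear members 2.49-, 2.68- and 2.77-fold in the WT libraries, and 2.91-, 2.75-, 2.69- and 2.31-fold in KO/+ replicates 1 to 4. The WT range lay inside the KO/+ range. In WT replicate 1, mt-Atp8 held 39200 of the 105859 TPM summed over the 13 mt-encoded genes, at only 89.1 CPM. By contrast, mt-Co1 held 13563 TPM there at 10655 CPM. The fold values and the mt share of TPM thus depend much on 1 gene with a small part of the counts.

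**Figure D5:**
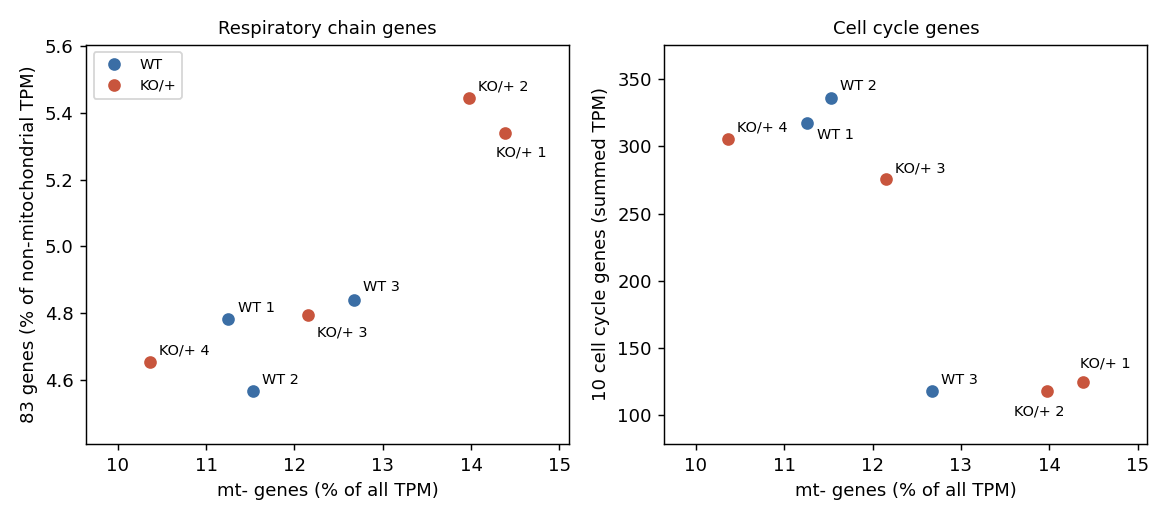
Share of nuclear TPM held by the 83 members against the share of all TPM from the 37 mt- genes, 1 point for each of the 7 libraries (left), and the summed TPM of 10 cell cycle genes against the same share (right). KO/+ replicates 1 and 2 (14.4% and 14.0% mt) stand apart at the upper right of the left panel, where Pearson r is 0.90, or 0.60 without those 2, and WT replicate 3 joins them among the low values of the right panel.

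Gene by gene, each gene's share of nuclear TPM was set against the mt share of counts: 74 of 82 members (90.24%) had a positive r, against 39.46% of nuclear genes, and 39 (47.56%) had an r above 0.8, against 5.57%. With CPM in place of the TPM share, 78 (95.12%) were positive, against 50.76% of nuclear genes, and 63 (76.83%) were above 0.8, against 11.35%. On the TPM share, 51.44% of other protein-coding genes under 1000 bases were positive and 12.7% were above 0.8. Marker lists of cell types varied: 6 of 6 red blood cell genes, 11 of 12 choroid plexus genes and 0 of 10 cell cycle genes were positive. Ndufa8, Ndufc1, Cox5a and Atp5g2 were negative on the TPM share and positive on CPM. The highest was Ndufa4, a complex IV subunit once assigned to complex I, with r = 0.99 on the TPM share over the 7 libraries. It was at 214, 221 and 249 CPM in WT and 282, 278, 238 and 208 CPM in KO/+, the same order of the 7 libraries as the mt share. Next came Ndufa9, Cox6c, Atp5f1 and Atp5a1, with r of 0.97, 0.96, 0.96 and 0.95. The lowest were Cox4i2 (-0.66), Cox6a2 (-0.53) and Ndufa10 (-0.51).

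Other properties of the libraries differed along with the mt share, some of them only in part. Cell cycle genes, 10 in number, summed to 318, 336 and 118 TPM in WT, against 125, 118, 275 and 306 TPM in KO/+, and were low in the 3 libraries with the highest mt share. Of their log2 fold changes, 0 of 10 were positive, with a median of -0.32 beside a median SE of 0.43. The r of the summed cell cycle genes with the mt share of TPM was -0.87 (rho -0.71), and -0.73 without KO/+ replicates 1 and 2. The sum of 10 mature granule neuron genes was 2413, 2258 and 2282 TPM in WT and 3064, 2804, 2285 and 2561 TPM in KO/+, with 9 of the 10 log2 fold changes positive. Its r with the mt share of TPM was 0.66 (rho 0.39) and turned to -0.85 without KO/+ replicates 1 and 2. Red blood cell genes summed to 3055, 2781 and 3049 TPM in WT and 5060, 6970, 4914 and 2727 TPM in KO/+, with 6 of 6 positive. Choroid plexus genes summed to 49.3 to 1875 TPM in WT and 61.2 to 2360 TPM in KO/+, with 11 of 12 positive, and myelin genes to 8824 to 15862 and 7057 to 13491 TPM, with 6 of 10 positive. None of the markers in these lists was at 0 in all libraries. Their part in the members' values was not tested.

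Transcript length was another property the members share. Their median length was 704 bases, against 2701 for tested protein-coding genes, and 7 had a mean effective length under 100 bases. Among 937 other protein-coding genes under 1000 bases, 666 had a positive log2 fold change, with a median of 0.06 and a median deviation of 0.11 in KO/+ replicate 1. The 60 tested members under 1000 bases had a median of 0.11, and the 22 longer ones 0.12, with 20 positive. The part of length in the values was not tested further. Sequence copies touched fewer genes: 47 members had no 50-base window in another gene, 7 had over 50% of windows shared, and for 3 (Atp5l, Cox7a2l and Ndufb4) the sharing genes reached over 10% of their TPM. A single transcript made up over 90% of 59 members on average, and in 10 members the leading transcript was under 60%.

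Other genes of the pathway were read from fixed lists, and 0 of each list passed the adjusted threshold. Of 44 tested assembly factors, which build the complexes without staying in them, 30 were positive, with a median log2 fold change of 0.06. Ndufaf1, a complex I assembly factor, was lower in KO/+ without overlap, the 1 of 44 to be so against 1.8% of all genes, at 17.4, 17.2 and 18.4 CPM in WT and 15.7, 17.1, 14.6 and 15.0 CPM in KO/+ (log2 ratio -0.18, SE 0.09, edgeR adjusted p = 0.957). Electron carriers and subunits named outside the symbol families were positive in 9 of 9 (median 0.10), among them Cycs, cytochrome c (0.14, SE 0.08). Of 20 regulators of mitochondrial biogenesis, 12 were positive (median 0.01).

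Among those regulators, Lrpprc, which stabilises mitochondrial mRNAs, was at 67.1, 67.0 and 72.7 CPM in WT and 61.2, 59.0, 57.98 and 61.8 CPM in KO/+. All 4 KO/+ libraries lay below WT, the 1 such gene of these 20 against 1.8% of all genes (log2 fold change -0.20, SE 0.07, unadjusted p = 0.0163 and adjusted p = 0.957 by edgeR). Tfam, which packages and transcribes mitochondrial DNA, had a log2 ratio of 0.22 (SE 0.08). Of 16 citric acid cycle genes 11 were positive (median 0.06), and Cs, citrate synthase, was lower in KO/+ without overlap, 1 of these 16, at 246.5, 262 and 261 CPM in WT and 211, 211, 219 and 244 CPM in KO/+ (log2 ratio -0.21, SE 0.08, edgeR adjusted p = 0.957). Of 16 glycolysis genes 7 were positive (median -0.01).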

How the data were processed

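Polyadenylated RNA libraries were made with a directional kit, and bcl2fastq, Trimmomatic 0.39, STAR 2.5.2a and RSEM 1.3.1 are named in the submitters' processing notes, with builds mm10 and GRCm38. The deposited expected counts and TPM values are RSEM estimates for each gene, per the file headers. The deposited effective lengths are the numbers of possible fragment starts, and the deposited isoform percent is a transcript's share of its gene's transcripts, per the file headers. The sources used here do not name the strand setting or annotation, and all 55450 gene IDs matched GENCODE M21. Tables of the whole series were not used.

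Expected counts were rounded, filtered with filterByExpr, scaled by TMM factors and fitted with edgeR 4.0.16 (glmQLFit and glmQLFTest, robust, no covariate; R 4.3.3), with Benjamini-Hochberg adjustment over 16813 genes, a threshold of 0.05 and 95% intervals. CPM values use TMM library sizes. The common biological coefficient of variation was 18.7%. The mt share was compared by exact permutation (SciPy 1.17.1). Scripts were tested on simulated data. The members and lists were chosen with earlier results of these data known. Named genes were, for each complex, the most abundant member and the 3 smallest p-values, together with fixed subunits, the mt-encoded protein genes, L3mbtl3, 2 genes per pathway list, the members with extreme correlations and those without overlap; Ndufa10, Gm6969, Gm10221 and members named for their order of libraries were chosen after their values were seen. Alternatives were DESeq2 1.42.0, other scaling, filters and units, limma 3.58.1, a replicate block and leaving out each library; merging gene copies, correlations on CPM and the promoter motif letters, of which a longer NRF1 form was tried first, were chosen after the data were seen.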

Additional observations from a re-analysis of the deposited data

Results flagged for a closer look

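Of 63 results checked for a sample far from the others, 1 stood out in the KO/+ group. Chance gives about 1 in every 20 such checks, so 1 of 63 is no more than chance would give. mt-Nd3, a complex I subunit of the mitochondrial genome, was at 99.5, 102 and 97.8 CPM in KO/+ replicates 1 to 3 and at 65.4 CPM in KO/+ replicate 4. The gap to the nearest library was 0.882 of the whole range, above Dixon's 95% critical value for 4 samples. Replicate 4 also had the lowest share of counts from the mitochondrial genome, 3.16%.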

How the results depend on the processing

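The count of respiratory chain genes called was 0 in every alternative run. Over all genes the count was 0, but 1 with the replicate block (Eif3j2) and 0 to 1 when 1 library was left out: Wdfy1 without WT replicate 2, Fam220a without WT replicate 3 and Eif3j2 without KO/+ replicate 4. The median log2 fold change of the members was positive throughout, from 0.0656 to 0.153 when 1 library was left out, 0.0658 on log2(TPM + 1) and 0.163 with the replicate block, where 4 members had an unadjusted p under 0.05 against 6.12% of all genes. Deviations of same-numbered libraries from their group means correlated at 0.0863, -0.17 and -0.0217. With so few pairs, these values cannot show whether the replicate numbers mark litters or batches. Of 58 named genes, 54 kept their sign outside the leave-one-out runs. On log2(TPM + 1) and log2(TPM + 0.1), Sdha turned to -0.0064 in both, mt-Nd1 to -0.0313 in both and Cox5a to -0.0289 and -0.029, and mt-Nd4l turned to 0.132 with the replicate block; the cause was not tested. Leaving out 1 library, Uqcr10 ran from -0.0055 to 0.0834, Ndufv1 from -0.0777 to 0.008, Sdha from -0.0351 to 0.194, Cox5a from -0.03 to 0.0443, mt-Nd1 from -0.0888 to 0.114, mt-Nd4l from -0.209 to 0.259 and mt-Co2 from -0.0766 to 0.247, and 25 of 34 named members moved by over 1.5 times or changed sign. With 3 and 4 libraries and a median SE of 0.105, differences of the size seen here were not detectable singly.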
